A study of Mus musculus with 6 samples.

Results

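Imprinted genes are genes of which mainly the copy inherited from a single parent is transcribed. The 31 described here are the rows of the deposited expression table that carry the symbol of a listed imprinted gene, out of 38 symbols listed and 26776 genes in the table. Slc38a4, Nnat, Usp29, Zim1, Rtl1 and Magel2 had no row and were not analysed here, and Nespas has its row under its newer symbol Gnasas1, which the list of symbols does not hold, so it is given apart from the 31. The RNA came from LT-HSCs (long-term haematopoietic stem cells), a small bone marrow population from which all blood lineages are renewed for life, taken from Trim47+/eGFP mice. By this name all cells, in both groups, carried a Trim47 allele with an enhanced green fluorescent protein (eGFP) reporter beside a normal allele. Cells with high reporter signal (eGFPhi, 3 libraries) were compared with cells with low signal (eGFPlo, 3 libraries). The sources used here state neither the age, sex and strain of the mice, nor the sort gates, nor whether replicates were separate or pooled animals, so the p-values cover the spread among these libraries and nothing more.

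Imprints are marks of DNA methylation laid down in the egg or sperm at control regions and kept in all later cells. Most imprinted genes lie in domains in which a control region, often the promoter of a long noncoding RNA, sets which parental copies of the neighbouring genes are silent. Many of the proteins they encode restrain or promote growth, and in mouse blood several of them, among them H19, the Meg3 domain and Cdkn1c, are known for roles in stem cell quiescence and maintenance. The counts do not tell the maternal from the paternal copy, so the parent named below for each gene is background from other mouse tissues.

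The libraries held 11221070 to 26058391 counts. Levels are given as CPM (read counts relative to library size, after TMM scaling for a few dominant genes), and 3 counts equal 0.115 to 0.267 CPM in a single library. Fold changes divide eGFPhi by eGFPlo unless called lower, and where an SE or adjusted p stands with them they come from the quasi-likelihood test of edgeR, with a Benjamini-Hochberg adjusted p over all 18081 genes tested and a threshold of 0.05. Trim47 itself stood at 23.7 ± 2.29 CPM in eGFPhi and 8.12 ± 0.818 CPM in eGFPlo (SD, n = 3 each), which is the order the labels give. Of 10 HSC markers 9 were higher and 0 lower in eGFPhi, with summed levels of 2173 to 2378 CPM in eGFPhi and 992 to 1024 CPM in eGFPlo. Summed levels of the other lists follow as eGFPhi against eGFPlo. All 5 granulocyte-monocyte progenitor markers (279 to 287 against 5211 to 5311 CPM), 8 B lineage markers (14.2 to 17.2 against 417 to 430 CPM), 5 erythroid markers (19.9 to 26.6 against 56.3 to 78.8 CPM) and 6 mitosis genes (1102 to 1116 against 2722 to 2774 CPM) were lower in eGFPhi. Of 5 T cell markers 2 were tested and both were lower, and 4 had no count in eGFPhi (0 to 0.257 against 8.22 to 11.6 CPM). Stroma markers summed to 53.1 to 62.1 against 39.2 to 40.9 CPM, with 9 of 10 listed present, 3 higher and 1 lower, and Lepr at 0 in eGFPlo. Endothelium markers summed to 149 to 153 against 92.1 to 97.7 CPM, with 3 of 5 higher and 1 lower, and Cdh5 at 0 in eGFPhi.

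Of the 31 imprinted genes 25 passed the filter on low counts and were tested. In eGFPhi 21 of them were higher and Gnas was lower, while Ube3a, Tssc4 and Phlda2 did not pass the threshold. Over all genes tested 32.3% were higher and 31.7% lower. The imprinted genes were chosen with earlier results of these data known, so such shares are not an independent comparison. For 15 of the 25 the count minimum was met in every library of both groups, so that the filter did not favour either group. Of these 11 were higher and 1 lower, against 30.5% and 31.8% of all 15391 genes so measured. Their median log2 fold change was 1.12, against -0.01 over those genes, and 8 of the 15 rose at least 2-fold, against 8.04%. The other 10 (Asb4, Peg3, Snrpn, Mkrn3, H19, Igf2, Slc22a18, Plagl1, Rian and Mirg) met the minimum in every eGFPhi library but not in every eGFPlo library. All 10 were higher, but the way they passed favours a rise, and 80.1% of all genes that passed so were called higher. Over the 25 together the median was 1.93 and 18 rose at least 2-fold (12.9% of all genes tested), values that include these 10. In 24 of the 31 genes every eGFPhi library lay above every eGFPlo library, in 2 (Gnas and Kcnq1) the reverse held and in 5 the groups overlapped. Of all 26776 genes, 30.0% and 29.5% lay apart in these directions. Fewer cells of a type and less RNA per cell cannot be told apart in such bulk samples, and the part that the lower progenitor, B lineage and mitosis transcripts of eGFPhi have in these differences was not tested.

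**Figure D1:**
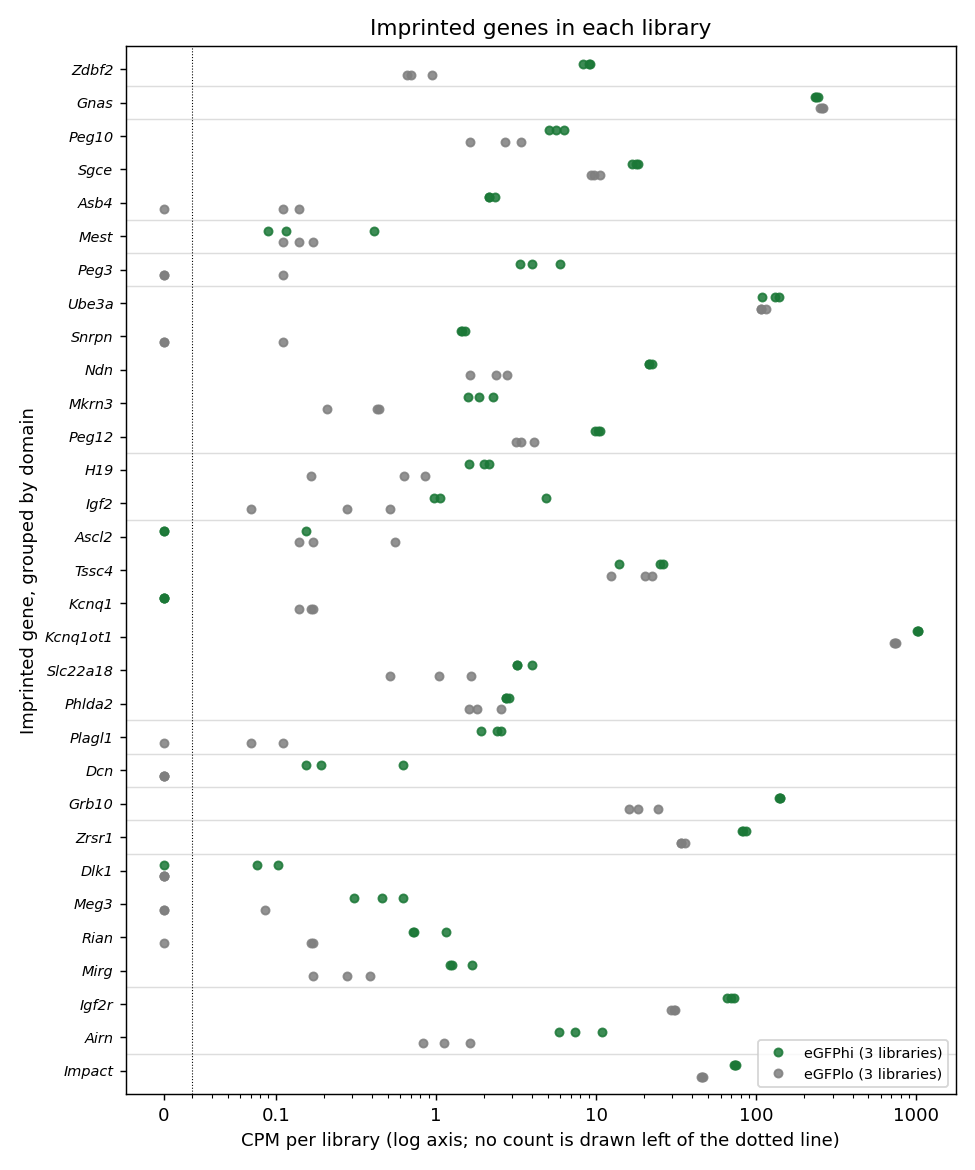
Level of each of the 31 imprinted genes in each library, in CPM on a log axis, with genes grouped by imprinted domain; green points are the 3 eGFPhi libraries, grey points the 3 eGFPlo libraries, and libraries with no count are drawn left of the dotted line. In 24 genes all green points lie right of all grey points and Gnas and Kcnq1 show the reverse.

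Promoter sequences of 25 of the 31 genes were taken from RefSeq (GRCm38.p6), as windows of 300 bases that run from 250 before to 50 after a transcript start, 40 windows in all. They were read for TGCCGC, the letters bound by the imprint-keeping protein Zfp57 when their CpG is methylated, on both strands (GCGGCA on a printed strand is the same site read on the other strand, and the match cannot overlap itself). Of these 40 windows 8 held it, in 7 genes, against 11.6% of all 32851 windows of the same length in the table. Windows of starts that lie close together overlap, and 2 of the 8, both of Mest, hold the same matches. The windows of the genes had a median of 12.5 CpG, against 7 over all windows. The 4 below belong to genes with large rises, each shown by its window with the most matches, and matches are in capitals. The other windows of Zdbf2 and Grb10 hold 0 matches, as do the windows of Asb4, Ndn and Mkrn3, which rose too. Peg3, whose promoter is shared head to head with Usp29, has none in its window. A link between the motif and the rises was not tested. Plagl1 lies at chr10:13090582-13090881 (plus strand), Grb10 at chr11:12037371-12037670 (minus strand), the upstream start of Zdbf2 at chr1:63200108-63200407 (plus strand) and Peg3 at chr7:6730370-6730669 (minus strand).
Plagl1: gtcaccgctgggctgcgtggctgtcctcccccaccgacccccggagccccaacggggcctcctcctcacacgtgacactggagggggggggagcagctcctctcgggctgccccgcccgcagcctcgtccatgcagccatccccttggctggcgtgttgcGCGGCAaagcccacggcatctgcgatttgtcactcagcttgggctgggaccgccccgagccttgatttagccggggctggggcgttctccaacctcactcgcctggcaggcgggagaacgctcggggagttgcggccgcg
Grb10: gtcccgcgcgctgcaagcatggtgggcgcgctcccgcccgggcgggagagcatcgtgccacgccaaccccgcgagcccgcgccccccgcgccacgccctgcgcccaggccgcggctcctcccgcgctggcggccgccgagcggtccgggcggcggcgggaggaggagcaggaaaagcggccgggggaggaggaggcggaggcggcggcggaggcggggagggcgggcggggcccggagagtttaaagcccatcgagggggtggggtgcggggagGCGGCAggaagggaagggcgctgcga
Zdbf2: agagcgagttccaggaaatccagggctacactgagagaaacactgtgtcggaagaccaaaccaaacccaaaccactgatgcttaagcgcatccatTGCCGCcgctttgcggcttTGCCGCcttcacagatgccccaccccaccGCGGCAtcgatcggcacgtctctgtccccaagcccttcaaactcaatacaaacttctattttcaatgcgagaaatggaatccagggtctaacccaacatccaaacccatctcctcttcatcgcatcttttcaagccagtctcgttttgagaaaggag
Peg3: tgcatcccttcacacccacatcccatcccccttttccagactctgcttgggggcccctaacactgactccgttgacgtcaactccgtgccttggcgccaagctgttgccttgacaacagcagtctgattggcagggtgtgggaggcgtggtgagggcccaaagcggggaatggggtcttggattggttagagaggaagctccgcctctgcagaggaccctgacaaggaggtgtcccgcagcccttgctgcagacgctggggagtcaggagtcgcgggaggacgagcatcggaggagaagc
The Zdbf2 window holds 3 matches and those of Plagl1 and Grb10 hold 1 each, and Grb10 has 45 CpG in 300 bases. This Zdbf2 window lies before the measured Zdbf2 row, which starts at chr1:63273265, and the window at that start holds 0 matches. A match is only a run of letters, and methylation was not measured.

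Of the imprinted genes that act on insulin-like growth factors, Grb10, Igf2r and Igf2 were higher in eGFPhi. Grb10 (chr11:11930508-12038683, minus strand), which encodes an adaptor that binds and restrains the insulin and IGF1 receptors, had 139, 140.2 and 141 CPM in the eGFPhi libraries and 16.0, 24.5 and 18.3 CPM in the eGFPlo libraries. The eGFPhi libraries were nearly equal to each other and far above the eGFPlo libraries, among which replicate 2 was highest. The rise was 7.12-fold (log2 fold change 2.83, SE 0.13, edgeR adjusted p = 1.49e-06). Igf2r (chr17:12682406-12769664, minus strand), the receptor that takes IGF2 from the cell surface to lysosomes, had 66.0, 73.3 and 70.0 CPM in eGFPhi and 29.6, 30.8 and 31.3 CPM in eGFPlo. All eGFPhi libraries stood above all eGFPlo libraries, a 2.29-fold rise (log2 fold change 1.19, SE 0.05, edgeR adjusted p = 1.68e-06).

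Airn (chr17:12741311-12860136, plus strand) is the paternally transcribed noncoding RNA that starts inside Igf2r on the other strand and silences the paternal Igf2r copy in cis in most mouse tissues. It had 10.9, 5.88 and 7.35 CPM in eGFPhi and 1.63, 1.12 and 0.831 CPM in eGFPlo, so that both partners of this antisense pair were higher in eGFPhi. The groups did not overlap, although the eGFPhi libraries differed among themselves and replicate 1 was highest, and the rise was 6.78-fold (log2 fold change 2.76, SE 0.32, edgeR adjusted p = 1.99e-04). Airn and Igf2r share no exon bases in the annotation. For each 100 Igf2r counts there were 16.5, 8.02 and 10.5 Airn counts in eGFPhi and 5.51, 3.64 and 2.65 in eGFPlo. Airn was thus higher relative to Igf2r in every eGFPhi library, and the log2 ratio was tested by exact permutation, two-sided (p = 0.1, the least that groups of 3 can reach).

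Igf2 and H19 share enhancers on chromosome 7 and are expressed from opposite parental copies, Igf2 from the paternal and H19 from the maternal. H19 (chr7:142575529-142578143, minus strand), a noncoding RNA, had 1.60, 2.15 and 2.0 CPM in eGFPhi and 0.857, 0.629 and 0.166 CPM in eGFPlo. It was 3.8-fold higher (log2 fold change 1.93, SE 0.42, edgeR adjusted p = 0.00484), from 18, 56 and 39 counts in eGFPhi and 10, 9 and 3 counts in eGFPlo. Igf2 (chr7:142650766-142666816, minus strand), a fetal growth factor, had 1.07, 4.88 and 0.976 CPM in eGFPhi and 0.514, 0.0699 and 0.277 CPM in eGFPlo. The groups did not overlap, yet eGFPhi replicate 2 stood far above the others, and the rise of 8.94-fold (log2 fold change 3.16, SE 0.90, edgeR adjusted p = 0.0167) became a log2 fold change of 1.86 without that library (edgeR adjusted p = 0.0243). The call was lost without eGFPlo replicate 2 (adjusted p = 0.0571) or eGFPlo replicate 3 (adjusted p = 0.0556).

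The odd Igf2 library had a counterpart in the neighbouring row Gm49394, looked at after the values were seen, which shares 3596 exon bases with Igf2 on the same strand. Gm49394 had 39 counts in eGFPhi replicate 1, 0 in replicate 2 and 32 in replicate 3, and 0 in each eGFPlo library. Summed, both rows gave 4.54, 4.88 and 2.62 CPM in eGFPhi and 0.514, 0.0699 and 0.277 CPM in eGFPlo. The eGFPhi libraries still differed among themselves, with replicate 3 lowest, but replicate 2 no longer stood far above the others. The fit with the summed row gave a log2 fold change of 3.84 (SE 0.47, edgeR adjusted p = 2.72e-04). How reads shared by such genes were assigned is not stated, and the level of Igf2 alone is uncertain.

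**Figure D2:**
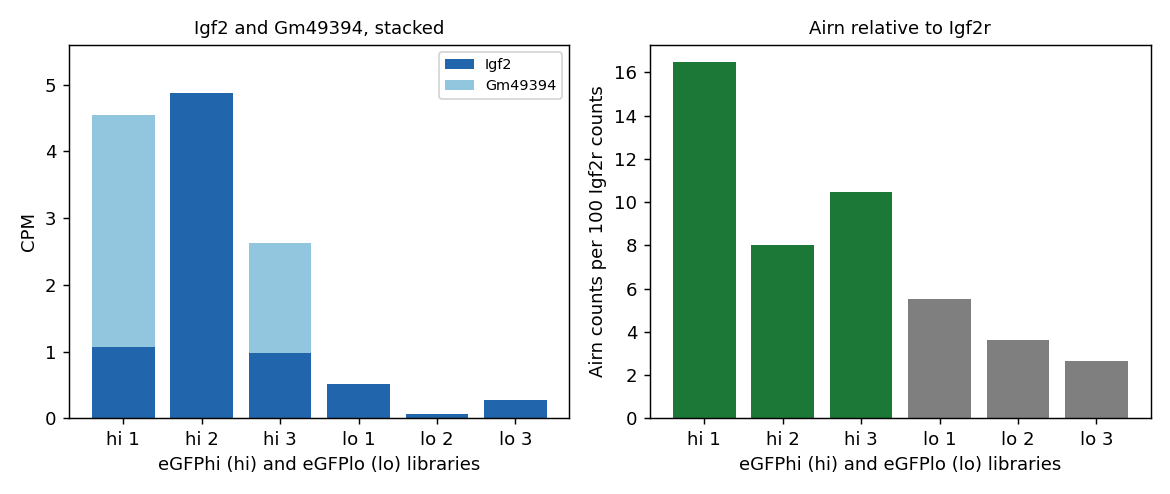
Left, CPM of Igf2 (dark) with Gm49394 (light) stacked on it in the 3 eGFPhi and 3 eGFPlo libraries; right, Airn counts for each 100 Igf2r counts in the same libraries. The stacked sums are 2.62 to 4.88 CPM in eGFPhi and at most 0.514 CPM in eGFPlo, and the Airn ratio is 8.02 to 16.5 in eGFPhi and 2.65 to 5.51 in eGFPlo.

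Plagl1 (chr10:13060504-13131694, plus strand), a zinc finger transcription factor known to regulate other imprinted genes and to slow growth, was found almost only in eGFPhi. It had 2.40, 1.92 and 2.57 CPM in eGFPhi and 0, 0.0699 and 0.111 CPM in eGFPlo, which is 127 counts in eGFPhi and 3 in eGFPlo. The ratio of pooled counts was 32.9 (95% counting interval 11 to 161), and the difference passed the edgeR test (adjusted p = 4.82e-05). Peg3 (chr7:6703892-6730431, minus strand), another zinc finger gene, showed the same pattern with 5.96, 3.34 and 4.01 CPM in eGFPhi and 0, 0 and 0.111 CPM in eGFPlo. Its 232 counts in eGFPhi and 2 in eGFPlo gave a ratio of 90.1 (95% counting interval 24.7 to 748; edgeR adjusted p = 5.91e-05). For both genes the 3 eGFPhi libraries had counts throughout, and no eGFPlo library had more than 2 counts.

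The Dlk1-Meg3 domain of chromosome 12 was transcribed at low levels, and its maternal RNAs Mirg and Rian were called higher in eGFPhi. Mirg (chr12:109729764-109749460, plus strand), a host of many microRNAs, had 1.69, 1.27 and 1.23 CPM in eGFPhi and 0.171, 0.280 and 0.388 CPM in eGFPlo, a 4.55-fold rise (log2 fold change 2.18, SE 0.32, edgeR adjusted p = 6.21e-04). Rian, a host of small nucleolar RNAs, had 1.16, 0.730 and 0.719 CPM in eGFPhi and 0.171, 0 and 0.166 CPM in eGFPlo, a 6.89-fold rise (log2 fold change 2.78, SE 0.57, edgeR adjusted p = 0.00365). Neither gene's groups overlapped. Both genes passed the filter through eGFPhi alone, and 80.1% of all genes that passed so were called higher. Meg3, the long noncoding RNA that names the domain, did not pass the filter, with 7, 8 and 9 counts in eGFPhi and 1, 0 and 0 counts in eGFPlo. Its ratio of pooled counts was 18.6 (95% counting interval 3.04 to 766). Dlk1, the paternal gene for a Notch-like membrane protein, had 4 counts in eGFPhi and 0 in eGFPlo, too few for a comparison.

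The exons of Mirg contain 9 microRNA hairpins, of which 3 mature RNAs are shown with the seed, bases 2 to 8, in capitals. They lie on chromosome 12, plus strand, and their seeds differ from each other; the sequences and positions, 109734145-109734166, 109733781-109733802 and 109743764-109743784 in the order printed, are from RefSeq (GRCm38.p6).
mmu-miR-134-5p: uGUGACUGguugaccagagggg
mmu-miR-382-5p: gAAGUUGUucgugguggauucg
mmu-miR-410-3p: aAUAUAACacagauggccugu
A library made from poly-A RNA holds host transcripts and not mature microRNAs, so the levels of these were not measured.

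In the Snrpn domain of chromosome 7, the region whose human counterpart underlies Prader-Willi and Angelman syndromes, the 4 paternal genes present were higher in eGFPhi and the maternal gene Ube3a did not pass the threshold. Ndn (chr7:62346569-62350262, plus strand), which encodes the growth suppressor necdin, had 21.4, 21.4 and 22.3 CPM in eGFPhi and 1.63, 2.80 and 2.38 CPM in eGFPlo. It rose 9.42-fold (log2 fold change 3.24, SE 0.16, edgeR adjusted p = 2.20e-06), with eGFPhi libraries nearly equal. Peg12 (chr7:62461871-62464510, minus strand), which encodes a protein of the Frat family that binds the kinase Gsk3, had 9.79, 10.5 and 10.3 CPM in eGFPhi and 4.11, 3.42 and 3.16 CPM in eGFPlo (2.90-fold, edgeR adjusted p = 3.40e-05). Mkrn3 (chr7:62417593-62420139, minus strand), a RING finger gene known for holding back puberty, had 1.87, 2.27 and 1.59 CPM in eGFPhi and 0.428, 0.210 and 0.443 CPM in eGFPlo (5.23-fold, edgeR adjusted p = 3.46e-04). No eGFPlo library reached any eGFPhi library in these 3 genes.

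Snrpn (chr7:59982495-60140219, minus strand), which encodes a core protein of the spliceosome, had 1.51, 1.46 and 1.44 CPM in eGFPhi and 0, 0 and 0.111 CPM in eGFPlo. Its 83 counts in eGFPhi and 2 in eGFPlo gave a ratio of 32.2 (95% counting interval 8.64 to 270; edgeR adjusted p = 1.63e-04). Summed with Snurf and Gm38393, which share exons with it, the level was 3.56, 3.00 and 2.77 CPM in eGFPhi and 0.171, 0.280 and 0.388 CPM in eGFPlo, with a log2 fold change of 3.36 (SE 0.27, edgeR adjusted p = 3.19e-05). The groups stayed apart either way, while the size of the difference depended on how the rows are counted. Ube3a (chr7:59228750-59311536, plus strand), the ubiquitin ligase that is maternal in neurons and read from both copies elsewhere, had 139, 130.3 and 108 CPM in eGFPhi and 115, 107 and 107 CPM in eGFPlo (log2 fold change 0.20, SE 0.09, edgeR adjusted p = 0.0832). Its groups overlapped, and without eGFPhi replicate 3, the lowest of its group, the adjusted p was 0.00250. Ube3a shares 5624 exon bases with genes on the other strand, and whether reads were counted by strand is not stated.

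The Kcnq1 domain, also on chromosome 7, holds the imprinted transcript with the most counts. Kcnq1ot1 (chr7:143203458-143296549, minus strand), the paternal noncoding RNA that silences its neighbours in cis, had 1023, 1018 and 1008 CPM in eGFPhi and 742, 745 and 725 CPM in eGFPlo. The libraries of each group lay close together and the groups apart, a 1.38-fold rise (log2 fold change 0.46, SE 0.02, edgeR adjusted p = 6.43e-07). When the spread between replicates was set to a coefficient of variation of 0.2, it did not pass edgeR's test (adjusted p = 0.114).

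Kcnq1ot1 silences the maternal genes of this domain on their paternal copy in some mouse tissues. Of the 5 such genes among the 31, Slc22a18 was higher, and Phlda2 and Tssc4 did not pass the threshold. Ascl2 and Kcnq1 were below the filter. Slc22a18 (chr7:143473736-143499334, plus strand), a member of the organic cation transporter family, had 3.20, 3.19 and 4.01 CPM in eGFPhi and 0.514, 1.05 and 1.66 CPM in eGFPlo (3.06-fold, log2 fold change 1.61, SE 0.32, edgeR adjusted p = 0.00321). Its neighbour Phlda2 (chr7:143501545-143503150, minus strand), which limits placental growth, had 2.76, 2.88 and 2.72 CPM in eGFPhi and 1.8, 1.61 and 2.55 CPM in eGFPlo (log2 fold change 0.47, SE 0.20, edgeR adjusted p = 0.0742). The groups of both genes lay apart, and for Phlda2 the adjusted p was 0.0153 without eGFPlo replicate 3. Tssc4 (chr7:143069249-143071093, plus strand) had 26.2, 25.2 and 14 CPM in eGFPhi and 20.3, 22.4 and 12.3 CPM in eGFPlo (log2 fold change 0.25, SE 0.29, edgeR adjusted p = 0.473), with replicate 3 lowest in both groups. Ascl2, a transcription factor of the placenta, had 3 counts in eGFPhi and 14 in eGFPlo, 10 of them in replicate 3, a ratio of pooled counts of 0.166 (95% counting interval 0.0307 to 0.596). The potassium channel gene Kcnq1 had no count in eGFPhi and 2, 2 and 3 counts in eGFPlo. It was 3.01-fold lower when eGFPhi was set to a floor of 3 counts over the group. Kcnq1ot1 and Kcnq1 share 121 exon bases on opposite strands.

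**Figure D3:**
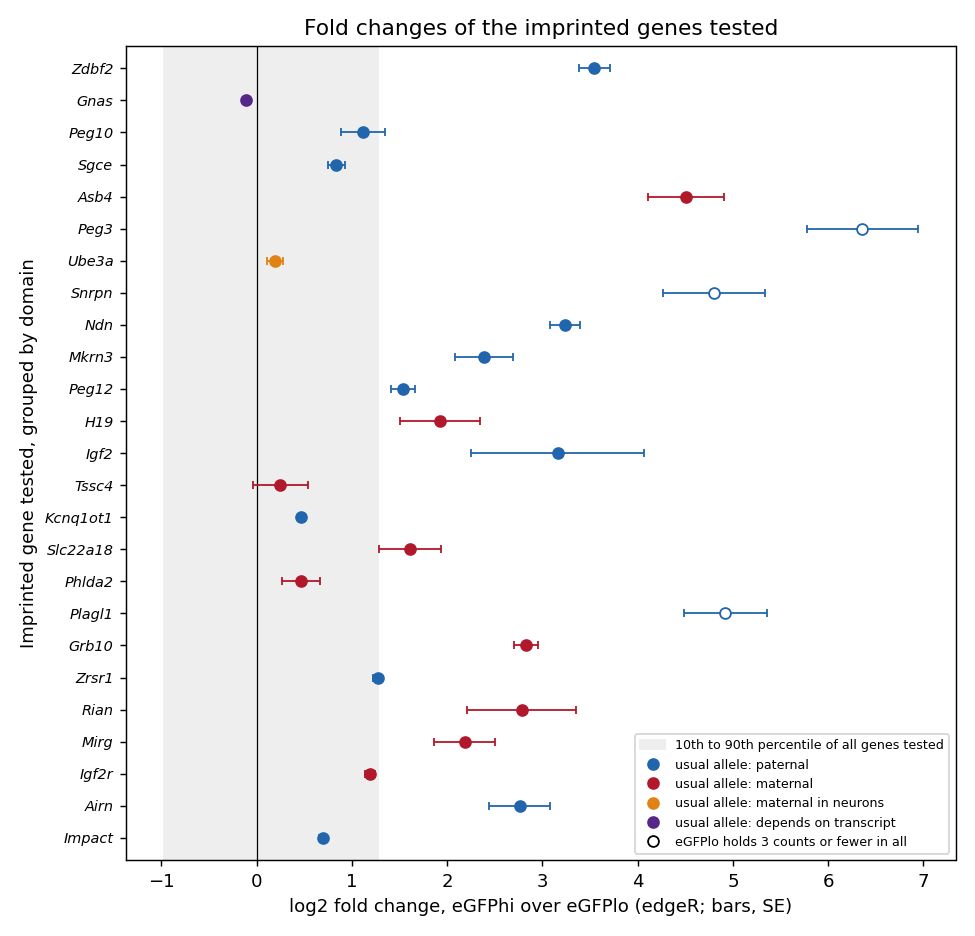
Log2 fold change, eGFPhi over eGFPlo, of the 25 imprinted genes tested, with its SE, coloured by the parental copy that is usually expressed; open points have 3 counts or fewer in all eGFPlo libraries together, so their place depends on the fit's prior, and the grey band runs from the 10th to the 90th percentile of all genes tested (-0.97 to 1.27). All 14 paternal genes tested lie right of 0, and 9 of them met the count minimum in every library. The other 5 passed the filter through eGFPhi alone, and 80.1% of all genes that passed so were called higher. Tssc4, Phlda2 and Ube3a lie close to 0 without passing the threshold, and Gnas lies just left of 0.

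Peg10, Sgce and Asb4, which lie in 1 domain of chromosome 6, were all higher in eGFPhi. Peg10, derived from a retrotransposon, and Sgce, which encodes a sarcoglycan, start next to each other on opposite strands and are both paternal. Sgce (chr6:4674350-4747207, minus strand) had 18.3, 16.8 and 17.7 CPM in eGFPhi and 9.68, 10.6 and 9.25 CPM in eGFPlo (1.79-fold, edgeR adjusted p = 1.27e-04). Peg10 (chr6:4747306-4760517, plus strand) had 5.07, 6.30 and 5.6 CPM in eGFPhi and 1.63, 3.42 and 2.71 CPM in eGFPlo (2.17-fold, edgeR adjusted p = 0.00415). For each 100 Sgce counts there were 32.2 ± 4.92 Peg10 counts in eGFPhi and 26.1 ± 8.20 in eGFPlo (SD, n = 3 each; exact two-sided permutation p = 0.5), so Peg10 relative to Sgce differed by less than the spread between libraries. The maternal gene Asb4 (chr6:5383386-5433022, plus strand), which encodes an ankyrin repeat and SOCS box protein, had 2.14, 2.34 and 2.16 CPM in eGFPhi and 0, 0.140 and 0.111 CPM in eGFPlo, or 127 counts in eGFPhi and 4 in eGFPlo (22.8-fold, log2 fold change 4.51, SE 0.40, edgeR adjusted p = 4.98e-05).

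Of the genes outside these domains, Zdbf2, Zrsr1 and Impact were higher, Gnas was lower, and Mest and Dcn were below the filter. Zdbf2 (chr1:63273265-63314576, plus strand), a paternal zinc finger gene that supports growth after birth, had 8.28, 9.07 and 9.14 CPM in eGFPhi and 0.942, 0.699 and 0.664 CPM in eGFPlo (11.7-fold, log2 fold change 3.54, SE 0.16, edgeR adjusted p = 1.75e-06). Zrsr1 (chr11:22972005-22976496, plus strand), an intronless splicing factor gene inside Commd1, had 82.3, 86.6 and 81.9 CPM in eGFPhi and 36.1, 34.1 and 33.7 CPM in eGFPlo (2.42-fold, edgeR adjusted p = 6.28e-07). Its host Commd1, on the other strand, went the opposite way at 20.7 ± 1.76 CPM in eGFPhi and 27.7 ± 4.43 CPM in eGFPlo (SD, n = 3 each; log2 fold change -0.42, edgeR adjusted p = 0.0196). The pair shares 412 exon bases.

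Impact (chr18:12955852-12992950, plus strand), which encodes an inhibitor of the stress kinase Gcn2, had 72.7, 73.8 and 75.3 CPM in eGFPhi and 46.3, 45.1 and 45.6 CPM in eGFPlo (1.62-fold, edgeR adjusted p = 4.33e-06). Gnas (chr2:174284320-174346744, plus strand), whose main product is the stimulatory G protein alpha subunit and whose transcripts differ in their parental origin, had 235, 244 and 232 CPM in eGFPhi and 252, 257 and 261 CPM in eGFPlo. It was the only one of the 25 genes tested that was called lower, by 1.08-fold (log2 fold change -0.11, SE 0.03, edgeR adjusted p = 0.00876), and was not called at the set coefficient of variation of 0.2 (adjusted p = 0.756). It shares 2457 exon bases with genes on the other strand, among them Gnasas1 (Nespas), a paternal antisense RNA. Gnasas1 had 0.623, 1.31 and 1.49 CPM in eGFPhi and 0.514, 0.978 and 0.554 CPM in eGFPlo (log2 fold change 0.81, SE 0.38, edgeR adjusted p = 0.0953). Its groups overlapped. Mest, a hydrolase family gene of fetal mesoderm, had 12 counts in eGFPhi and 6 in eGFPlo. Dcn, the stromal proteoglycan decorin, had 7, 5 and 3 counts in eGFPhi and none in eGFPlo (3.88-fold higher with eGFPlo set to 3 counts). Both were too low for the filter.

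Grouped by the usual parent of origin, 9 paternal genes met the count minimum in every library of both groups. All 9 were higher in eGFPhi, and their log2 fold changes had a median of 1.27. Over all genes so measured 30.5% were higher, with a median of -0.01. Of the 4 maternal genes so measured Grb10 and Igf2r were higher, and Tssc4 and Phlda2 did not pass the threshold. A further 5 paternal and 5 maternal genes passed the filter through eGFPhi alone and were higher, as were 80.1% of all genes that passed so. A difference between the parental classes was not tested.

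Levels between genes were compared as CPM per kilobase of merged annotated exon. In eGFPhi the highest were Gnas at 21.2 ± 0.560, Zrsr1 at 18.6 ± 0.585, Grb10 at 15.4 ± 0.0633 and Impact at 14.4 ± 0.254 (SD, n = 3). In eGFPlo they were Gnas at 22.9 ± 0.371, Tssc4 at 9.95 ± 2.88, Impact at 8.91 ± 0.109 and Kcnq1ot1 at 7.92 ± 0.115, followed by Zrsr1 at 7.71 ± 0.280 (SD, n = 3). Grb10 ranked 3 of 31 in eGFPhi and 8 of 31 in eGFPlo, at 2.16 ± 0.480. Kcnq1ot1, with by far the most counts, ranked 6 in eGFPhi at 10.9 ± 0.0822, with a single annotated exon of 93092 bases. Tssc4, at 11.8 ± 3.68 in eGFPhi, did not differ beyond its spread from Grb10, Impact or Kcnq1ot1 there, nor in eGFPlo from Impact, Kcnq1ot1 or Zrsr1.

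A further list held 48 genes that are imprinted in some mouse tissue, of which 39 had a row and 29 were tested. Of these 16 were higher and 5 lower, with a median log2 fold change of 0.26, beside 32.3% higher and 31.7% lower over all genes tested. Cdkn1c, a maternal gene of the Kcnq1 domain that encodes the cell cycle inhibitor p57, had 19, 18.2 and 24.7 CPM in eGFPhi and 2.66, 1.82 and 4.10 CPM in eGFPlo, a 7.04-fold rise (log2 fold change 2.82, SE 0.26, edgeR adjusted p = 6.02e-05). The groups lay far apart, with replicate 3 highest in both. Among the genes with the smallest p, the serotonin receptor gene Htr2a was 5.99-fold higher, Ppp1r9a, which encodes an actin-binding protein, 1.83-fold, the ubiquitin ligase family gene Herc3 1.81-fold and the AMP deaminase gene Ampd3 2.12-fold. Gatm, the first enzyme of creatine synthesis, had 19.9 ± 1.95 CPM in eGFPhi and 47.2 ± 2.24 CPM in eGFPlo (log2 fold change -1.24), and the organic cation transporter gene Slc22a3, a neighbour of Igf2r, had 54.1 ± 0.986 CPM in eGFPhi and 80.2 ± 1.73 CPM in eGFPlo (log2 fold change -0.57; SD, n = 3 each).

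Of 26 listed genes that set, keep or read imprints, 23 had a row and all 23 were tested. In eGFPhi 13 were lower and 5 higher, beside 31.7% and 32.3% of all genes tested, with a median log2 fold change of -0.21. Dnmt1, the methyltransferase that copies DNA methylation at replication, had 402 ± 6.42 CPM in eGFPhi and 575 ± 9.57 CPM in eGFPlo (SD, n = 3 each; log2 fold change -0.52, SE 0.02, edgeR adjusted p = 1.15e-06). Its partner Uhrf1 had 122 ± 3.49 CPM in eGFPhi and 278 ± 23.8 CPM in eGFPlo (log2 fold change -1.19, edgeR adjusted p = 3.16e-06). The chromatin remodeller gene Hells (-0.90), the Polycomb methyltransferase gene Ezh2 (-0.85), the insulator protein gene Ctcf (-0.50) and the cohesin gene Smc3 (-0.32), given as log2 fold changes, were lower as well. Of the other listed cohesin genes, named after their values were seen, Rad21 was lower (-0.36) and Smc1a higher (0.11). Dnmt1, Uhrf1, Hells and Ezh2 are known to rise in cycling cells, and the 6 mitosis genes were lower in the same libraries; the part of that difference was not tested. Zfp57, named after its values were seen because its motif was searched, was higher, at 9.76 ± 1.36 CPM in eGFPhi and 5.43 ± 0.353 CPM in eGFPlo (log2 fold change 0.86, SE 0.13, edgeR adjusted p = 8.65e-04). Zfp445 of the same list was higher too (0.11), while Trim28 (-0.32) and Setdb1 (-0.42) were lower, given as log2 fold changes and likewise named afterwards. At the set coefficient of variation of 0.2, 1 of these regulators was higher and 3 were lower.

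**Figure D4:**
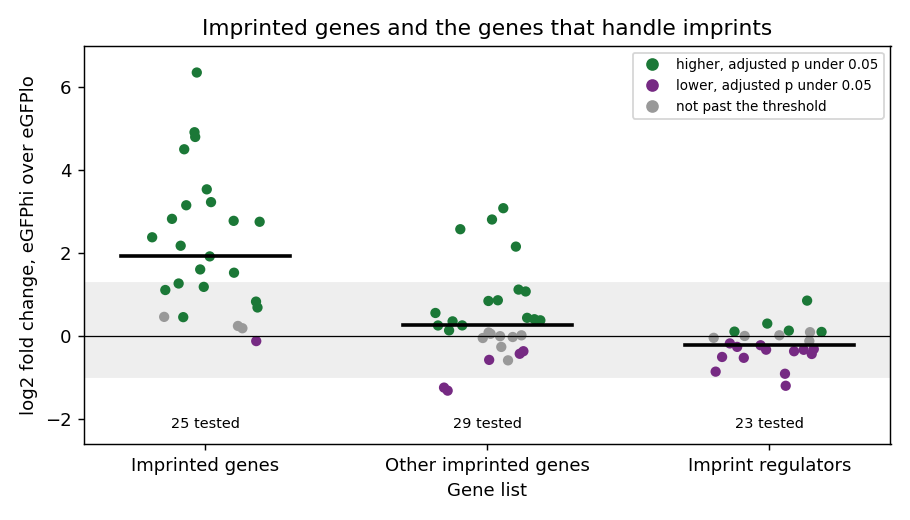
Log2 fold change, eGFPhi over eGFPlo, of each gene tested in 3 lists; green points passed the test as higher, purple points as lower, grey points did not pass, black bars are medians and the grey band is the 10th to 90th percentile of all genes tested. The medians are 1.93 for the 25 imprinted genes, 0.26 for 29 other imprinted genes and -0.21 for 23 imprint regulators. The 1.93 includes 10 genes that passed the filter through eGFPhi alone, and the 15 that met it in both groups had a median of 1.12.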

How the data were processed

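Per the labels, poly-A RNA was taken from total RNA of integrity above 7 and made into stranded paired-end libraries. The deposited table holds read counts per gene and library, and FPKM values that the authors derived, per the file headers. The submitters' processing notes name CASAVA 1.8, HISAT2, StringTie and edgeR, and the builds hg38 and GRCm38, without roles. Of 26776 gene identifiers 26710 are in GENCODE M21, so positions are on GRCm38; 15 of the 31 imprinted genes share exon bases with another gene.

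The test was edgeR 4.0.16 under R 4.3.3 (filterByExpr at 10 counts and a total of 15, TMM factors, quasi-likelihood F test, group as the only term); the steps were tested on simulated data. Every gene with a mean of at least 1 CPM in a group is given by library; of the other lists the smallest p values, at most 6, and Cdkn1c. Members and lists were chosen with earlier results of these data known. Groups with 0 counts were set to 3 counts, and these folds leave out the counting error of the other group. Groups with 1 to 3 counts were given exact binomial counting intervals (95%), which cover counting error only. Deviations from the group mean, over all genes tested, were not correlated between libraries of the same replicate number (r = -0.0133, 0.000555 and -0.0108). A correlation over all genes can miss a shift shared by few genes, so whether these libraries shared an animal or day is not known. Alternatives used DESeq2 1.42.0 and limma 3.58.1.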

Additional observations from a re-analysis of the deposited data

How the results depend on the processing

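Among the 25 imprinted genes tested, 378 of 391 gene values under the alternatives kept their direction and their side of the threshold, 7 gained a call, 6 lost it and none reversed; the depth of the libraries limits the genes under about 1 CPM. Of the counts of genes higher and lower, a replicate spread set to a coefficient of variation of 0.2 gave 3637 and 2982 of all genes, 0 imprinted genes lower, 8 and 3 of the other imprinted genes, and 1 and 3 of the regulators. A stricter filter (5 CPM in 3 libraries) left 14 imprinted genes, of which 11 were higher, with a median log2 fold change of 1.17. Zdbf2, Ndn, Airn, Peg12 and Peg10 reached 5 CPM in eGFPhi libraries only, so they passed this filter through eGFPhi alone. Of all 12478 genes tested under it 4172 were higher and 4241 lower. Leaving out members that share exon bases left 13 tested, of which 12 were higher and 0 lower (median 1.61). Over all genes tested, with or without shared exon bases, 32.3% were higher and 31.7% lower. Among the 13 members Asb4, Peg3, Mkrn3 and Slc22a18 had passed the filter through eGFPhi alone. With no filter 2 imprinted genes were lower, Gnas and Kcnq1 (adjusted p = 0.0132), while Meg3 (0.00599) and Dcn (0.0215) were called higher. Of the 39 other imprinted genes 18 were higher and 8 lower without a filter, beside 7050 higher and 6633 lower of all 26776 genes. The median over the imprinted genes was 2.12 with limma-voom and 0.42 on log2(FPKM + 1), a scale that understates low genes. Leaving out each library gave 20 to 22 imprinted genes higher and 1 lower, and medians of 1.83 to 2.10. Over all genes these fits gave 5302 to 5734 higher and 5230 to 5693 lower, of 18153 to 18926 tested. Igf2 lost its call without eGFPlo replicate 2 (adjusted p = 0.0571) or replicate 3 (0.0556) and on log2(FPKM + 1) (0.126), and Rian lost it on that scale (0.646). The replicate block was a fit with the replicate number as a term. In it 23 imprinted genes were higher and 1 lower, as Ube3a (0.0482) and Tssc4 (0.0490) were added. Of all 18081 genes tested in that fit 5551 were higher and 5414 lower. The replicate numbers are not known to mark shared animals. The sums of Igf2 or Snrpn with overlapping rows were added after the data were seen.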

Other observations

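Snhg14, the paternal noncoding RNA that runs from the Snrpn promoter region across Ube3a on the other strand, was named after its values were seen. It had 1.51, 0.807 and 0.925 CPM in eGFPhi and 0, 0.0699 and 0.221 CPM in eGFPlo (log2 fold change 3.09, SE 0.60, edgeR adjusted p = 0.00285). Snhg14 passed the filter through eGFPhi alone, and 80.1% of all genes that passed so were called higher. Beside Peg10, Pon2 was lower, at 27.2 ± 1.13 CPM in eGFPhi and 34.7 ± 0.426 CPM in eGFPlo (SD, n = 3 each; log2 fold change -0.36, edgeR adjusted p = 8.16e-04), and Pon3 was not called (log2 fold change 0.09, edgeR adjusted p = 0.467); both were chosen after their values were seen. Begain, a gene beside Dlk1 on chromosome 12, likewise looked at afterwards, had 9.35, 12.1 and 11.2 CPM in eGFPhi and 3.60, 2.45 and 1.55 CPM in eGFPlo (log2 fold change 2.16, SE 0.26, edgeR adjusted p = 2.38e-04). Several listed imprinted genes were found in only 1 of the groups at low counts. The share of all genes found in only 1 group was not counted, and the genes named here are examples. Chosen in the same way, Nap1l5 and Qpct had 22 and 19 counts in eGFPlo and none in eGFPhi, while Klf14 had 13 counts in eGFPhi and none in eGFPlo.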
